A study of Mus musculus with 267 samples.

Results

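Basal H3K27ac, the acetylation of histone H3 at lysine 27, was compared between untreated bone marrow-derived macrophages (BMDMs) of BALB (BALB/cJ) and C57 (C57BL/6J) mice at 44541 regions. A member was a pair of 1000-bp windows, 1 in the C57 table and 1 in the BALB table, each placed on a reproducible ATAC-seq peak, that were mutual nearest neighbours with centres at most 500 bp apart. The tables held 121764 regions in all, so the pairs took 65.8% of the 67742 C57 regions and 82.4% of the 54022 BALB regions. A further 22041 regions (32.5%) stood in the C57 table only and 9021 (16.7%) in the BALB table only, and 1160 and 460 regions lay within 500 bp of a centre that was paired with a closer window.

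Each strain had 2 basal libraries, named biological replicates in the study's methods, made with the same lot of H3K27ac antibody from cells of healthy female mice aged 8 to 12 weeks. Marrow was grown into macrophages with L929-conditioned medium and then recombinant M-CSF, and the basal dishes received no IL-4. The 24 h libraries used beside them (2 per strain) came from cells given IL-4 for 24 hours. Also used were basal H3K27ac libraries of NOD (NOD/ShiLtJ), PWK (PWK/PhJ) and SPRET (SPRET/EiJ) macrophages, 2 per strain. These were read at windows of their own strain matched to the C57 centre within 500 bp. Whether libraries of a strain came from different mice is not said in the labels, so the p-values below measure the spread between these libraries. BALB reads were aligned to a BALB genome built from known variants and then shifted to mm10 coordinates, and a lower level and sequence missing from that genome cannot be told apart.

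H3K27ac is laid down by the acetyltransferases CBP and p300 and marks active enhancers and promoters. In macrophages the enhancer repertoire is selected largely by PU.1, the lineage-determining ETS factor, together with C/EBP and AP-1 proteins. Alleles that alter such sites are a known source of enhancer differences between inbred strains.

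The macrophage markers Adgre1, Cd68, Cebpa, Csf1r, Fcgr1, Itgam, Lyz2, Mertk and Spi1 each had a promoter region in both tables. Spi1, which encodes PU.1, held 1712 and 1419 normalized tags in C57 and 1504 and 1339 in BALB, and Csf1r, the M-CSF receptor, 681 and 651 against 698 and 707. A normalized tag is a read after scaling each library to 10000000 tags. Of 34 marker genes of other cell types, 6 had one. The neutrophil pair (S100a8 and Ltf, of 8 markers) summed to 71.9 and 58.5 in C57 and to 272 and 122 in BALB. That gap lay in S100a8 alone, at 55.6 and 19.3 against 250 and 94.7, while Ltf overlapped, at 16.3 and 39.2 against 22.1 and 27.4. The T-cell pair (Cd3d and Lck, of 5) summed to 206 and 144 in C57 against 372 and 256 in BALB. Ms4a1 of the B-cell list lay between 55.9 and 94.8 and Zbtb46 of dendritic cells between 1.79 and 2.94 in the 4 libraries. None of the NK-cell, erythroid, mast-cell or fibroblast markers had a matched promoter region.

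Library totals ran from 13608163 to 16785378 tags, so that 1 normalized tag stood for 1.36 to 1.68 reads. The matched regions took 56.8% and 52.0% of the C57 tags and 53.1% and 45.7% of the BALB tags. Libraries with the same replicate number stood closer to each other across the strains than the replicates of a strain did. Over the 44541 regions the log2 levels correlated at 0.95 between the replicates 1, 0.95 between the replicates 2, 0.93 between the C57 replicates and 0.94 between the BALB replicates, and at 0.92 and 0.90 in the crossed pairs. These are descriptions over regions that share libraries. Replicates of a strain differed far beyond counting noise, with a chi-square per degree of freedom of 20.5 in C57 and 15.1 in BALB, so each library counted as its own replicate.

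Window centres of a pair lay 29 bp apart in the median, and 93.8% lay within 100 bp. At the limit, the 140 pairs with centres over 400 bp apart had median levels of 63.2 tags in C57 and 68.5 in BALB. The 735 C57 regions just outside it, with the nearest BALB centre 500 to 600 bp away, had a median of 82.6 tags.

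The regions of the 3 largest differences in each direction carry much of the account below, and the central 200 bases of each are printed to show what underlies the windows. They were read from mm10, which is C57 sequence, plus strand, 5′ to 3′. BALB sequence was not read. Capitals mark matches to a searched motif, here STAT6 (TTC and GAA with 4 bases between) for Ttc39b, C/EBP (TTGCNNAA) for Grk3 and Ada, and AP-1 (TGANTCA) for Acta1, and Coro2a and Sfpq held none of the 6 motifs searched. The first 3 regions were higher in BALB and the last 3 in C57.
Ttc39b, chr4:83266033-83266232: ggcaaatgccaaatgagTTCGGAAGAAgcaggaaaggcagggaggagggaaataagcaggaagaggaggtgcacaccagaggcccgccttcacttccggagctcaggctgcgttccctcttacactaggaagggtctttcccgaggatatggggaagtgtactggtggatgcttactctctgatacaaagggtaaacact
Grk3, chr5:112933954-112934153: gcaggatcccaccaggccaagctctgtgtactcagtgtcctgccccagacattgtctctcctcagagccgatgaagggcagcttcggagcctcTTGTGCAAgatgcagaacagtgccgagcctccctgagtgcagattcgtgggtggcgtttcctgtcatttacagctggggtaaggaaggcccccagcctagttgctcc
Ada, chr2:163766325-163766524: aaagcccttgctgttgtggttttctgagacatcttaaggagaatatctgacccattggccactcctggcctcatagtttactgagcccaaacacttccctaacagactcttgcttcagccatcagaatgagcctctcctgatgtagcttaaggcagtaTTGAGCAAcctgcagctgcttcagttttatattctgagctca
Coro2a, chr4:46574947-46575146: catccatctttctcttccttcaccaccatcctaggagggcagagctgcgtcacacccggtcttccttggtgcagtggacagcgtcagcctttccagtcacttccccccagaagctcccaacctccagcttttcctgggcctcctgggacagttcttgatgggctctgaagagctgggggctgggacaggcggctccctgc
Acta1, chr8:123884888-123885087: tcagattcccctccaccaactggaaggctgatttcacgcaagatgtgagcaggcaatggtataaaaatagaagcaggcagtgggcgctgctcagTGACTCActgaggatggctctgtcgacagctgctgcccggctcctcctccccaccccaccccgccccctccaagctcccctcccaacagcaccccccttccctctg
Sfpq, chr4:127015627-127015826: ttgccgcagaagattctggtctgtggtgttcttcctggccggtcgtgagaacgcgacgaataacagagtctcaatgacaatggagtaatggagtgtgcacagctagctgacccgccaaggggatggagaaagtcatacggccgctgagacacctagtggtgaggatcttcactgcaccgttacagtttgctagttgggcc

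Most of the landscape was at like levels in the 2 strains. The 33870 regions (76.0%) with a mean of at least 16 normalized tags in either strain had a median log2 difference (BALB minus C57, of the mean + 1) of -0.10, and 79.8% of them differed by less than 1.5-fold. In 23534 regions (69.5%) the values of the strains overlapped, in 3999 (11.8%) both BALB libraries were above both C57 libraries and in 6337 (18.7%) below them. With 2 libraries per strain, such separation arises often without a strain difference, so these shares are a description only. A region was counted as higher where the means + 1 differed at least 2.5-fold and the libraries of the strains did not overlap. The fold and tag limits are those the study set for responses to IL-4 within a strain, where Pol II had to change too, and were moved here to the strain contrast with H3K27ac alone. By this rule 653 regions (1.93%) were higher in BALB and 572 (1.69%) in C57. At 4-fold the counts were 228 and 211, at 8-fold 50 and 47, and at 16-fold 14 and 10.

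No region passed limma's test at an adjusted p under 0.05 in the 4 libraries, and the smallest adjusted p was 0.0650. At an unadjusted p under 0.05 limma gave 2346 regions (5.27% of 44541). edgeR's quasi-likelihood test also called 0, with 2409 unadjusted, while DESeq2 called 179 higher in BALB and 190 in C57. A limma fit over all 8 H3K27ac libraries, basal and 24 h together, which share an estimate of the spread, called 158 (0.355%) higher and 146 (0.328%) lower in basal BALB, of which 143 and 144 were past the fold threshold. Single replicates moved the fold counts. Without C57 replicate 1, C57 replicate 2 or BALB replicate 2 the count higher in BALB was 1282, 1299 or 1171, and without C57 replicate 1, BALB replicate 1 or BALB replicate 2 the count higher in C57 was 1018, 1174 or 1147, and why they rose was not tested. For scale, the 2 C57 replicates differed by 2.5-fold at 3353 regions (9.90%) and the 2 BALB replicates at 2307 (6.81%). These compare single libraries, whereas the rule takes means and asks for no overlap. Single BALB and C57 libraries differed so at 5.64% (replicates 1) and 4.51% (replicates 2) of regions, and at 12.9% and 13.5% in the crossed pairs.

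**Figure D1:**
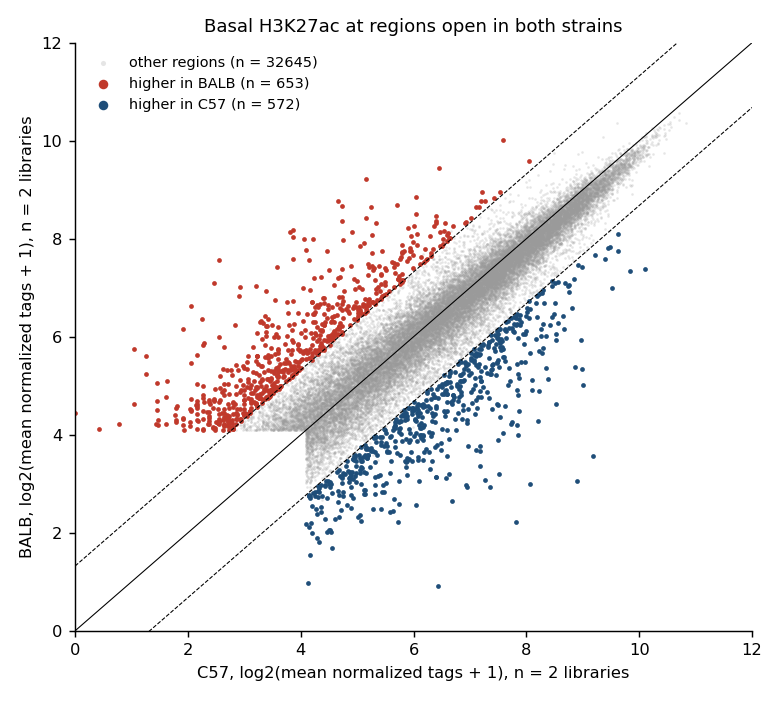
Mean basal H3K27ac of BALB (y axis) against C57 (x axis), both as log2(normalized tags + 1), n = 2 libraries each, at the 33870 regions with 16 or more tags in either strain. Coloured points are the 653 regions higher in BALB and the 572 higher in C57, and grey points the rest, most of which lie along the diagonal.

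Differences were rarer at promoters and at the highest levels. Regions annotated as promoter-TSS were higher in BALB in 66 and higher in C57 in 53 of 9188 cases (0.718% and 0.577%), intergenic regions in 247 and 279 of 9877 (2.5% and 2.82%) and intronic regions in 300 and 214 of 12986 (2.31% and 1.65%). Among the 8468 regions with the lowest average of the 2 strains (median 23.8 tags) 366 and 216 differed. Among the 8468 with the highest (median 325 tags) 25 and 40 did. The filter asks for 16 tags in either strain, so a region averaging under 16 could enter only by differing. Promoter-TSS regions also had higher levels, with a median of 122 tags, against 79.4 in intergenic and 77.6 in intronic regions. What part of these shares follows from level was not tested. Chromosome 9 held 65 regions higher in BALB and 24 higher in C57 of 1795, chromosome 11 held 28 and 26 of 2723, and the X chromosome 5 and 1 of 679.

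The largest basal differences ran to 57.7-fold. As limma called none, the 10 regions named in each direction are those with the largest fold by the rule above, at most 1 per nearest gene. Folds were 17.4 to 32.5 higher in BALB and 15.5 to 57.7 higher in C57 on the scale of tags + 1, which understates the change of low regions. Limma's adjusted p was 0.0650 to 0.322 for the first 10 and 0.0650 to 0.168 for the others. All 20 passed the limma fit over 8 libraries, 19 passed DESeq2 and none passed edgeR. These tests use the basal libraries that chose the regions, so a pass is no separate support.

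Higher in BALB, the largest difference was at Ttc39b, which encodes a tetratricopeptide-repeat protein that promotes the turnover of the sterol receptor LXR. The window (chr4:83265632-83266632, intronic, centre 93 bp upstream of an annotated start) held 6.11 and 3.57 normalized tags in the C57 replicates against 212 and 166 in BALB. The rule that chose the region asked for libraries that stand apart. The limma log2 difference was 5.05 ± 0.47 (SE, n = 2 per strain), with an adjusted p of 0.0650 in the 4 libraries by limma and 3.83e-18 to 0.0924 over its alternatives. Pol II was 2.68 to 19.3 tags in 4 C57 libraries and 42.7 to 81.3 in 3 BALB libraries, and the 24 h H3K27ac values were 10.2 and 3.28 against 184 and 91.5.

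Grk3 encodes a kinase of G protein-coupled receptors. Its intronic window 8.3 kb upstream of the nearest start (chr5:112933553-112934553) held 0.68 and 1.43 tags in C57 and 46.3 and 59.0 in BALB. These C57 values stand for 3 reads against 162, a ratio of 51.1 with a 95% counting interval of 17.2 to 250.4. H3K4me2, a mark of primed and active enhancers, was 0.00 and 1.41 against 34.5 and 54.8, and the basal PU.1 and C/EBPβ peak lists placed a peak there in BALB and not in C57.

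Ada encodes adenosine deaminase, which removes adenosine and deoxyadenosine. The intergenic window 16.2 kb upstream (chr2:163765924-163766924) held 4.75 and 4.28 tags in C57 and 137 and 134 in BALB, with close replicates in both strains. The same place held 101 and 88.9 tags in NOD and 217 and 210 in SPRET, but 1.72 and 3.13 in PWK. PU.1 and C/EBPβ peaks were listed in both strains.

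The other 7 regions higher in BALB lay from 173 bp to 209.6 kb from the nearest start. Near Exosc10, the catalytic subunit of the nuclear exosome, C57 had no read in either library and BALB had 22.8 and 18.5 tags, at least 9.64-fold higher when each C57 library is set to a floor of 3 reads. There H3K4me3, the mark of active promoters, stood at 0.73 and 0.49 in C57 and at 59.7 and 44.0 in BALB. At the promoter of Hal, histidine ammonia-lyase, values were 10.9 and 16.4 against 353 and 167, and 49.1 kb upstream of Fam20c, a kinase of the secretory pathway, 17.6 and 8.56 against 249 and 310. The Fam20c window carried Pol II at 0.00 to 4.99 tags in C57 and at 21.9 to 88.4 in BALB. The same rule chose the regions near Mdm1 (1.36 and 4.99 against 88.9 and 107), Icos (2.04 and 0.71 against 54.4 and 41.7) and Ywhaq (3.39 and 2.14 against 78.6 and 61.4). The region 104.8 kb from Ctnnb1, which encodes β-catenin, was the least even, at 7.46 and 0.00 against 121 and 41.7, and it is the region that DESeq2 did not call (adjusted p = 0.894, range over the alternatives 1.96e-12 to 0.894).

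Higher in C57, the leading region lay in an intron at Coro2a, a coronin that binds actin and belongs to NCoR corepressor complexes. It held 418 and 535 tags in C57 and 4.41 and 10.1 in BALB (chr4:46574546-46575546). The limma log2 difference of -5.93 ± 0.49 (SE, n = 2 per strain) had an adjusted p of 0.0650 by limma and of 2.97e-24 to 0.0924 over the alternatives. H3K4me2 was 103 and 114 against 10.4 and 7.18 and Pol II 35.6 to 86.3 against 3.83 to 5.93, although both strains had a PU.1 peak. NOD resembled C57, with 297 and 415 tags.

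The intergenic window 9.8 kb downstream of the Acta1 start (chr8:123884487-123885487) held 585 and 576 tags in C57 and 5.14 and 16.7 in BALB. Acta1 encodes skeletal muscle α-actin, and the gene is only the nearest start. PU.1 and C/EBPβ peaks were listed here in C57 and not in BALB. At 24 h the values were 344 and 329 against 15.1 and 30.5.

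Sfpq encodes a splicing factor of nuclear paraspeckles. The window 5.6 kb upstream (chr4:127015226-127016226) held 117 and 52.8 tags in C57 and 0.00 and 1.79 in BALB, which is 247 reads against 3 and a ratio of 87 with a counting interval of 29.4 to 424.7. NOD had 2.49 and 0.79 tags, PWK 3.43 and 2.35 and SPRET 3.42 and 0.00, so that C57 alone of the 5 strains was high. H3K4me3 went with it, at 124 and 122 in C57 and at 0.68 and 3.77 in BALB.

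Bmf, which encodes a proapoptotic BH3-only protein, showed the same order 4.9 kb upstream, with 132 and 72.0 tags in C57, 5.14 and 5.36 in BALB and at most 7.94 in NOD, PWK and SPRET. Steap3, a ferrireductase of endosomes, showed another. Its intronic region had 512 and 516 tags in C57, 33.1 and 29.8 in BALB, and 199 to 625 in the libraries of NOD, PWK and SPRET. The remaining 5 regions included those near Ccdc71l (204 and 327 against 4.41 and 9.53) and Sirpb1a (142 and 221 against 7.35 and 8.94). The others lay near Tnks (119 and 187 against 3.67 and 11.3), Nrp1 (65.8 and 179 against 3.67 and 9.53) and Olfr550 (80.7 and 162 against 3.67 and 10.1). Libraries stood apart by the rule that chose these regions. Sirpb1a and Olfr550 belong to families with near-identical copies, whose reads could be split between them, so these values are uncertain.

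**Figure D2:**
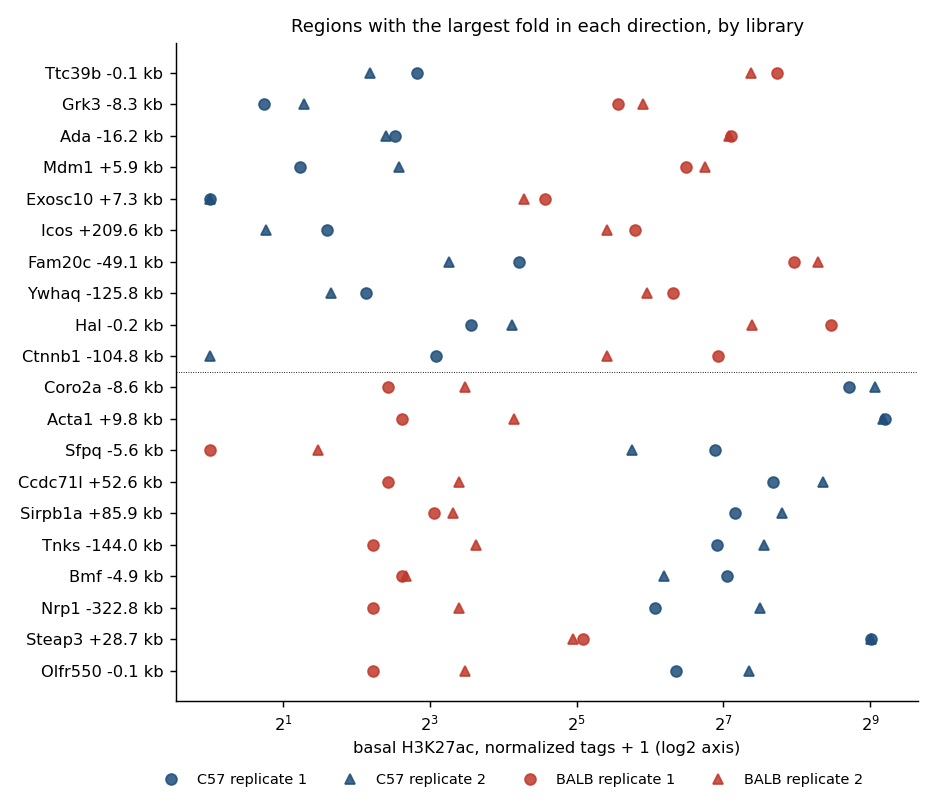
Basal H3K27ac per library (normalized tags + 1, log2 axis) at the 10 named regions higher in BALB and the 10 higher in C57, labelled by nearest gene and distance to its start. The rows were chosen for their fold and for libraries that stand apart, and the replicate gap on this axis is widest at the Ctnnb1 region (7.46 and 0.00 tags in C57).

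Part of the regions that differed lay in runs. Of those higher in BALB, 224 (34.3%) stood within 50 kb of another such region, in 87 runs, and of those higher in C57 240 (42.0%), in 96 runs. What part of these shares follows from the spacing of the windows was not tested. Of 297 neighbouring pairs 281 (94.6%) had the same direction. Windows of 87 of the 1225 regions (7.10%) overlapped another, so that part of their reads is counted in both.

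The longest run held 9 regions higher in BALB over 72.6 kb of chromosome 9 at Mpzl3, Jaml and Scn2b. Jaml encodes a junctional adhesion molecule of leukocytes. The 9 regions summed to 174 and 245 tags in C57 and to 1090 and 1246 in BALB. At 24 h the sums were 162 and 151 against 906 and 481. A run of 8 regions over 47.0 kb at Clmp, an adhesion molecule of epithelial junctions, took all 8 matched regions of its span and summed to 630 and 449 in C57 and to 2507 and 2990 in BALB.

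The third run on chromosome 9, 8 of 12 matched regions over 90.8 kb upstream of Ctnnb1, was uneven among replicates, with sums of 307 and 30.7 in C57 and 1505 and 668 in BALB. At Steap3 7 of 8 regions over 91.3 kb were higher in C57, at 1203 and 1207 against 215 and 219, with close replicates in both strains. At Trim14 and Coro2a 5 of 11 were, at 1239 and 1287 against 253 and 242. Smaller runs of 4 higher in C57 lay at Ctsh, which encodes the lysosomal protease cathepsin H (686 and 613 against 140 and 151), and at Nod1, a sensor of bacterial peptidoglycan (203 and 133 against 50.7 and 26.2). A run of 4 higher in BALB lay at Hip1 and Ccl24, the latter a CCR3 chemokine (63.8 and 87.7 against 252 and 374).

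**Figure D3:**
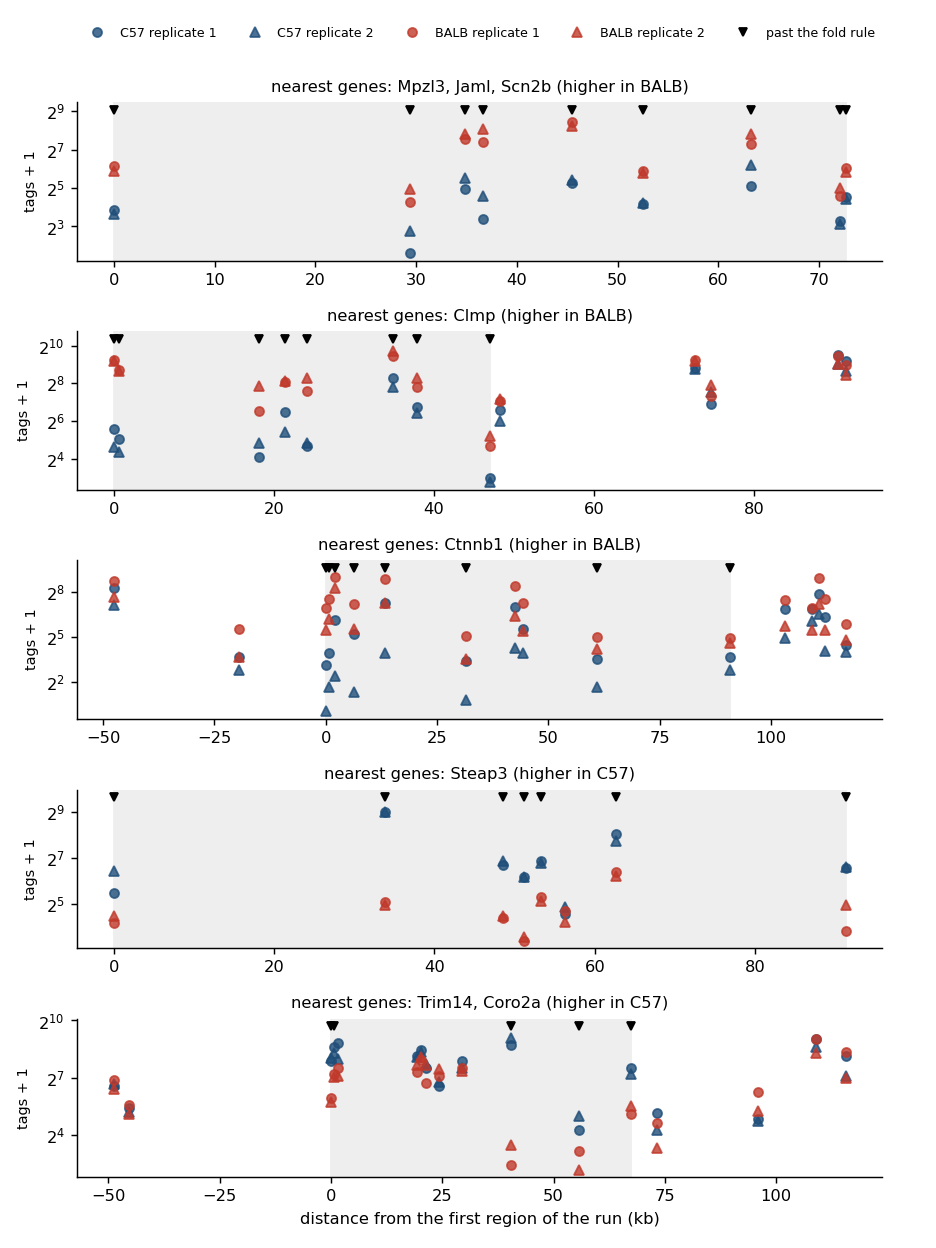
Basal H3K27ac per library (normalized tags + 1, log2 axis) at matched regions past 16 tags along the 5 longest runs, by distance in kb from the first region of the run. The grey band is the span of the run and triangles mark regions past the fold rule, which asks the libraries of the strains to stand apart. In the Ctnnb1 run the C57 sums are 307 and 30.7.

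The 24 h libraries, which the basal comparison does not use, separated most of the same regions. Of the 653 regions higher in basal BALB 636 (97.4%) were higher in BALB at 24 h, with a median log2 difference of 1.32, against 0.11 over the 33870 regions. Of the 572 higher in basal C57 97.9% were higher in C57 at 24 h, with a median of -1.31. The 24 h libraries of the strains did not overlap at 500 (76.6%) of the first and 466 (81.5%) of the second, compared with 10.7% and 7.44% of all regions past 16 tags. Limma called 88 regions (0.198%) higher in BALB at 24 h, of which 78 were among the 653, and 54 (0.121%) higher in C57, of which 49 were among the 572. Limma called 0 regions for a strain difference that changed with IL-4 (325 at an unadjusted p under 0.05), and no other tool was run on that. All 20 named regions kept their direction at 24 h with libraries apart, and limma called 9 in each direction.

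Other basal marks differed in the same direction at many of these regions. H3K4me2 had a median log2 difference of 0.47 at regions higher in BALB and of -0.75 at those higher in C57, against -0.09 over all, and limma called 99 of the first higher in BALB and 127 of the second higher in C57, of 216 (0.485%) and 237 (0.532%) calls among the 44541. It also called 2 of the regions higher in BALB in the opposite direction. RNA polymerase II (Pol II) had medians of 0.93 and -1.30 against -0.15, with 50 and 106 of the 60 (0.135%) and 126 (0.283%) calls. For H3K4me3 the medians were 0.75 and -0.72 against -0.01. Over the 44541 regions limma called H3K4me3 higher in BALB at 2, of which 1 was among the 653, and higher in C57 at 0. Of the 44541, 3686 had an unadjusted p under 0.05 by limma, 173 and 167 passed by edgeR and 274 and 234 by DESeq2. H3K4me3 was low at the differing regions, with median levels in C57 and BALB of 2.9 and 7.8 tags at those higher in BALB. At those higher in C57 they were 5.8 and 2.6. Among the 20 named regions limma called H3K4me2 at 7 of the 10 higher in BALB and 8 of the 10 higher in C57, and Pol II at 5 and 8.

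**Figure D4:**
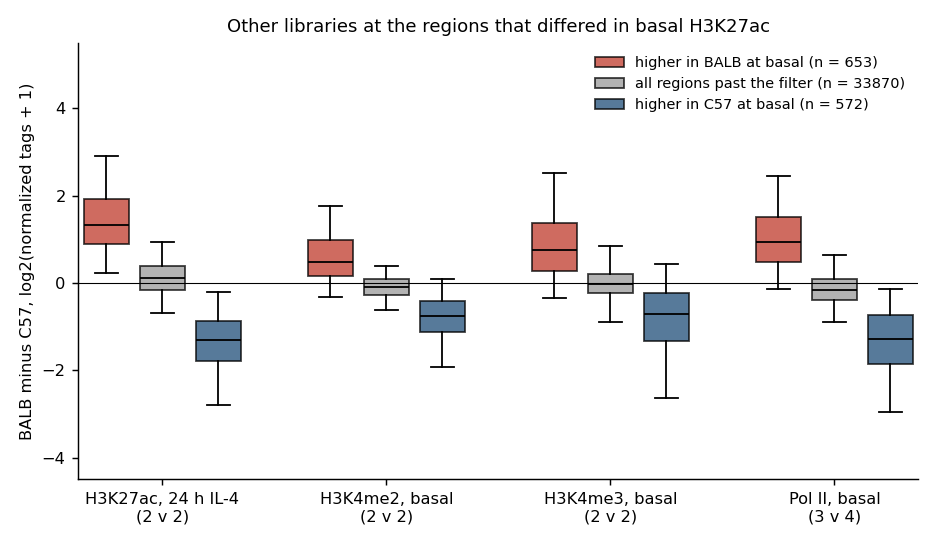
Log2 differences (BALB minus C57) of readouts that did not choose the regions, namely 24 h H3K27ac and basal H3K4me2, H3K4me3 and Pol II, at the regions higher in BALB, higher in C57 and all regions past 16 tags. Boxes span quartiles with the median and whiskers the 5th to 95th percentile, and for 24 h H3K27ac the medians are 1.32, -1.31 and 0.11.

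Median levels of the other strains lay between those of C57 and BALB, which the choice of regions by those 2 strains favours, and single regions did not follow (PWK was above C57 at Steap3 and SPRET above BALB at Ada). These levels stand side by side without a test, since every strain would be set against the same C57 libraries. At regions higher in BALB the median level was 12.7 tags in C57 and 51.9 in BALB, with 38.6 in NOD (595 regions with a matched window), 36.5 in PWK (528) and 37.6 in SPRET (439). At regions higher in C57 it was 84.9 in C57 and 20.3 in BALB, with 48.4 in NOD (551), 50.9 in PWK (481) and 48.6 in SPRET (359). Over all regions past 16 tags the medians were 92.3, 86.8, 95, 95.6 and 102 in C57, BALB, NOD, PWK and SPRET.

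Binding lists of the lineage factors leaned the same way. The authors' basal lists hold 200-bp peaks reproducible between replicates, 1 list per strain, and a region was counted where a peak lay within 500 bp of its centre. PU.1 peaks of the BALB list met 84.1% of the regions higher in BALB and those of the C57 list 65.8%, whereas at regions higher in C57 the shares were 74.1% and 85.5%. Over all regions past 16 tags they were 86.0% and 84.5%. A PU.1 peak in the BALB list alone stood at 129 regions higher in BALB (19.8%), 13 higher in C57 (2.27%) and 5.70% of all, and a peak in the C57 list alone at 10 (1.53%), 78 (13.6%) and 4.18%.

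C/EBPβ, a bZIP factor that cooperates with PU.1, showed the same with shorter lists (13722 peaks in BALB and 18043 in C57). A peak in the BALB list alone stood at 64 regions higher in BALB (9.80%), 1 higher in C57 (0.175%) and 1.76% of all. A peak in the C57 list alone stood at 18 (2.76%), 104 (18.2%) and 9.66%. Read the other way, of the 596 regions with C/EBPβ in the BALB list alone 10.7% were higher in BALB, and of the 1932 such PU.1 regions 6.68%. List membership follows the depth of each list's libraries, which was not tested. A basal ATAC-seq peak in C57 was listed for 89.3% of the regions higher in BALB, 94.9% of those higher in C57 and 94.5% of all. One in BALB was listed for 82.7%, 71.0% and 87.9%. At regions higher in BALB both shares were below those of all regions. Matching already asks for a peak in each strain, basal or with IL-4.

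Motif matches in the central 200 bases of the mm10 sequence were counted on both strands for regions more than 1000 bp from a gene start. The AP-1 letters TGANTCA occurred in 158 of 456 regions higher in C57 (34.6%), in 23.1% of 485 higher in BALB and in 23.6% of all 20036 such regions. The PU.1 letters GAGGAAGT occurred in 16.7%, 10.5% and 13.2%. For C/EBP (TTGCNNAA) the shares were 12.1%, 13.6% and 14.5%, for STAT6 (TTC, 4 bases, GAA) 5.26%, 5.15% and 5.91%, for IRF (GAAA, 2 bases, GAAA) 3.95%, 4.33% and 3.63% and for EGR (GCGTGGG) 1.32%, 2.06% and 1.65%. A match is a description of C57 letters only.

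Promoters nearest to a differing distal region leaned in its direction. Of 419 genes nearest to a region higher in BALB and more than 1000 bp away, 266 had a promoter region past 16 tags. Their median log2 difference was 0.11, with 21 (7.89%) higher in BALB and 1 in C57 by the fold rule. For the 373 genes nearest to a region higher in C57, 257 had one, with a median of -0.33, 18 (7.00%) higher in C57 and 2 in BALB. The median over all 9135 genes was -0.10. These values come from the same libraries that chose the distal regions. Pol II, from other libraries, had promoter medians of 0.0047 for the first genes and -0.24 for the second, against -0.14 over all. It was higher in BALB at 50.4%, 17.5% and 25.5% of these promoters. In all, 127 of 12357 promoter regions (1.03%) were higher in BALB and 81 (0.655%) in C57.

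At such low shares, short lists of promoters would hold few or none past the fold rule, and their counts are given as a description. Macrophage identity genes had 36 promoter regions past 16 tags, none past the fold rule, with a median log2 difference of -0.14, compared with -0.09 over the 12357 promoters. None was past it among 42 regions of MHC and antigen presentation (median -0.08), 47 of inflammatory and NF-κB genes (-0.20), 54 of lipid and cholesterol genes (-0.23) and 26 of steadily expressed genes (-0.20). Limma in the 4 libraries called no promoter of any list, as it called none at all.

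Interferon-stimulated genes had the lowest list median, -0.52 over 44 promoter regions, and 3 of these had a higher mean in BALB. Their summed levels were 13084 and 4932 tags in C57 and 6988 and 5443 in BALB, so C57 replicate 1 alone stood high. Without C57 replicate 1 the median was 0.30, against 0.10 over all promoters. Ifit3b, an interferon-induced antiviral gene with close paralogues, was the one promoter past the fold rule (2.27%, against 0.655% of all promoters higher in C57). It held 508 and 104 tags in C57 and 94.1 and 47.1 in BALB. At 24 h the list's median was -0.36 and that of all promoters 0.20. Of 22 promoters of the IFI200 family, DNA sensors encoded as a cluster of near-identical genes, and of inflammasome genes, 3 were past the fold rule. All 3 were higher in C57 (13.6%, against 0.655% of all promoters). Ifi204 held 463 and 240 against 139 and 120, Ifi209 273 and 78.4 against 68.3 and 45.3, and Ifi205 48.2 and 7.84 against 6.61 and 7.74. Without C57 replicate 1 the limma log2 difference at Ifi205 was -0.12 in place of -1.35, and the median of that list 0.27 in place of -0.03. MHC promoters also followed that library, with sums of 10049 and 4872 in C57 and 7799 and 5364 in BALB, and a median of 0.59 without C57 replicate 1.

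Genes of the IL-4 programme had regions that differed in either direction. Of 26 promoter regions 2 were higher in BALB (7.69%, against 1.03% of all promoters). They were those of Socs1, an inhibitor of JAK-STAT signalling (74.6 and 29.2 against 154 and 132), and Slc7a2, a cationic amino acid transporter (9.50 and 6.42 against 50.0 and 16.1). Of 186 regions nearest to a list gene 7 were higher in BALB (3.76%, against 1.93% of all regions) and 4 in C57 (2.15%, against 1.69%). The region 4.9 kb downstream of the start of Arg1, which encodes arginase 1, had 40.7 and 57 tags in C57 and 5.88 and 2.98 in BALB. The limma adjusted p was 0.168 in the 4 libraries and 0.00139 in the fit over 8 (3.00e-08 to 0.226 over all alternatives). At 24 h it held 60.3 and 106 against 40.7 and 18.6.

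Near Ccl24, a chemokine induced by IL-4, the order was the opposite. The region 4.4 kb downstream had 36.6 and 48.5 tags in C57 and 198 and 229 in BALB, with a limma adjusted p of 0.174 and of 0.0313 in the fit over 8 libraries (1.79e-11 to 0.327 over the alternatives). A region 9.4 kb upstream of Klf4, a transcription factor of alternative activation, had 33.2 and 21.4 against 5.14 and 4.77. One 13.8 kb downstream of Cish, another STAT target, had 272 and 236 against 76.4 and 59.6.

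Beside the 1.93% and 1.69% of all regions that were higher in BALB and in C57, the receptor and lysosome lists had these counts. Of 103 regions nearest to Fc, C-type lectin and scavenger receptors 5 were higher in C57 and none in BALB, and of 177 nearest to lysosome and phagocytosis genes 7 and 1, with 4 of the 7 at Ctsh. Marco, a scavenger receptor for bacteria, had a region 54.9 kb from its start with 21.7 and 11.4 tags in C57 and 0.73 and 1.19 in BALB, or 48 reads against 3, a ratio of 16.9 with a counting interval of 5.45 to 84.9. Msr1, the scavenger receptor for modified lipoproteins, had 97.7 and 128 against 22.8 and 31.6 at 47.7 kb. The promoter of Fcgr3, an activating IgG receptor, held 41.4 and 30.0 against 17.6 and 6.55.

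The promoter of Ctsh had 479 and 325 tags in C57 and 90.4 and 79.2 in BALB, the largest promoter difference of the lysosome list, with a limma adjusted p of 0.163 and of 0.0477 in the fit over 8 libraries (1.76e-14 to 0.197 over the alternatives). Pol II there was 146 to 242 tags in C57 and 36.8 to 90.7 in BALB. NOD and PWK held 228 to 352 tags and SPRET 33.3 and 40.8. The neutrophil gene S100a8, a calcium-binding alarmin that monocytes also express, had 55.6 and 19.3 tags in C57 and 250 and 94.7 in BALB at its promoter, and was the one promoter among those of other cell types past the fold rule. The part of neutrophils in this was not tested.

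Among paired receptors, families in which activating and inhibitory copies lie side by side, 3 of 174 regions were higher in BALB (1.72%) and 7 in C57 (4.02%), against 1.93% and 1.69% of all regions. A region 1.6 kb upstream of Sirpb1b had 674 and 727 tags in C57 and 222 and 225 in BALB. One 24.8 kb from Ly6c2, a marker of inflammatory monocytes, had 63.1 and 58.5 against 215 and 315, and the Ly6 and Sirpb1 genes have near-identical copies, so both values are uncertain. For lipid handling, a region in an intron of Abcg1, the cholesterol efflux transporter, had 63.8 and 61.3 against 181 and 223. Of the genes known to carry different alleles in these strains, 21 promoters had a median of -0.39. Fcgr3 was the one past the fold rule (4.76%, against 0.655% of all promoters higher in C57).

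**Figure D5:**
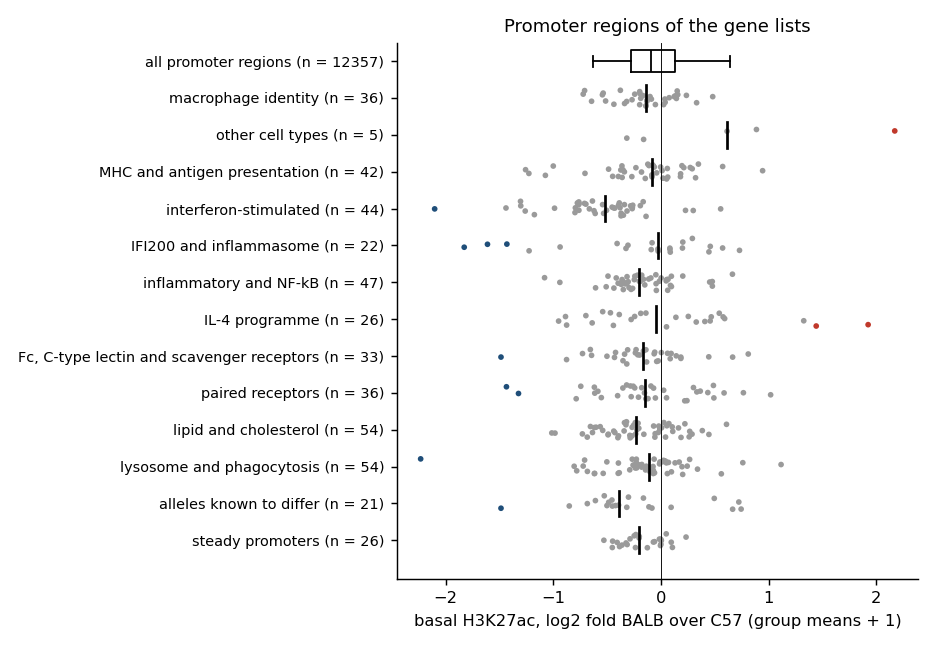
Log2 difference of basal H3K27ac (BALB minus C57) at promoter regions of each gene list, beside all 12357 promoter regions, with n in the axis label. The lowest list median, -0.52, belongs to interferon-stimulated genes and was 0.30 without C57 replicate 1.

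Over all promoter regions 1.03% were higher in BALB and 0.655% in C57. Of the 10 promoter regions past 16 tags of the study's example genes, which the study chose on these samples, 1 was higher in BALB (Slc7a2, above) and 2 in C57. Both of these lay at Treml2, a receptor of the TREM family, and held 86.2 and 26.4 tags in C57 against 21.3 and 19.1 in BALB and 86.2 and 25 against 20.6 and 22.6, with only C57 replicate 1 far from the other libraries. Without C57 replicate 1 the limma log2 difference of the first was -0.37 in place of -1.21. Cd36, a scavenger receptor for lipids, had 84.1 and 130 tags in C57 and 55.9 and 79.2 in BALB, and Ripk2, a kinase downstream of NOD receptors, 183 and 91.3 against 140 and 71.5. The 4 regions at the Egr2 start, which encodes a factor induced by IL-4, lay between 3.67 and 152 tags with strains overlapping in 3 of them. Mmp12 had 17 and 27.1 against 33.1 and 33.4.

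Regions found in the table of a single strain were lower in H3K27ac than paired ones. The 22041 C57-only regions had a median of 4.11 tags, against 55.2 for the C57 regions with a BALB centre within 500 bp, and 5282 (24.0%) reached 16 tags. The 9021 BALB-only regions had a median of 15.8, against 53.3, and 4489 (49.8%) reached 16 tags. The other strain's tags were not counted at these places, so a region missing from a table is not a region without acetylation. Of the C57-only regions 2891 had a BALB centre 500 to 1000 bp away (median 44.8 tags), 7455 one at 1000 to 5000 bp (6.27) and 11695 none within 5000 bp (2.11), and in BALB these were 1292 (88.8), 3293 (21.9) and 4436 (8.58).

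The highest of them had a window of the other table close by. The 3 highest C57-only regions, near Gpnmb (1980 and 1108 tags), Cerk (1468 and 1169) and Mpeg1 (1548 and 933), had a BALB window 583 to 878 bp away with 1024 and 500, 1235 and 856, and 1057 and 618 tags, lowest relative to C57 at Gpnmb. The 3 highest BALB-only regions, near Ctsb (1262 and 1071), Zc3h4 (1431 and 899) and Ptchd3 (911 and 1102), had a C57 window 827 to 900 bp away with 1134 and 960, 1238 and 891, and 1088 and 947.

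Farther than 5000 bp from any window of the other table, chosen after values were seen, the highest C57-only region lay in an intron 20.8 kb upstream of the start of Nlrp1b, the inflammasome sensor of anthrax lethal toxin, a member of a tandem family whose alleles differ between strains. It had 826 and 850 tags, and the nearest BALB window was 91.9 kb away. The next were near Sik1 (711 and 699) and Snx27 (738 and 608). In the BALB table they were near Ctsk, the protease cathepsin K (664 and 534), Slfn8 (568 and 593) and Tmem131 (658 and 458). Over 5000 bp away, 1123 C57-only and 1506 BALB-only regions reached 16 tags.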

How the data were processed

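ChIP-seq of H3K27ac in basal BALB and C57 BMDMs was read from 2 strain tables. The authors used Bowtie2 to align each library to the genome of its own strain, moved the positions onto mm10 and counted tags with HOMER. The deposited signal values are tags within 500 bp of ATAC-seq peak centres, scaled by the authors to 10000000 tags per library and kept per replicate. The deposited peak lists of PU.1 and C/EBPβ hold 1 list per strain. For 100% of values, multiplying by the library total over 10000000 gave whole reads within 0.1 read, which were used for count tests. Scaling to totals leaves differences in enrichment uncorrected, and intervals and floors (3 reads) cover counting error only.

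Regions were paired by mutual nearest centres within 500 bp. Limma 3.58.1 in R 4.3.3 (lmFit, eBayes with trend) tested log2(normalized tags + 1) over all matched regions without a filter, with Benjamini-Hochberg adjustment at 0.05. The fold rule (2.5-fold on means + 1, at least 16 tags in either strain) has no test. Alternatives were edgeR 4.0.16, DESeq2 1.42.0, a replicate block, all 8 H3K27ac libraries, other scaling, pseudocount, filter, fold and distance, and each library left out. Count tests on H3K4me3, list medians without single libraries and the distance classes of unpaired regions were added after the data were seen. Tests were checked on simulated data. The simulated reads held no difference shared by libraries of the same replicate number, so the check does not cover that.

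Named were the 10 regions of largest fold per direction (limma calls first, of which there were none, then the fold rule with libraries apart, at most 1 per gene), list members called or else most changed, the 3 highest regions of a single table, and promoters (centre within 1000 bp of a start) of the study's examples. The members, lists and rules were chosen with earlier results of these data known. Motifs were searched in RefSeq's mm10 sequence. H3K4me2, H3K4me3 and Pol II came from the same tables, and no value column of the 2 tables was left out for want of a sample.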

Additional observations from a re-analysis of the deposited data

How the results depend on the processing

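The fold rule gave 653 regions higher in BALB and 572 higher in C57. Without the filter on low values the count higher in BALB was 1021, at 2-fold the counts were 1108 and 1065 and at 4-fold 228 and 211. They ran from 621 to 1299 and from 771 to 1174 with single libraries left out. Median-ratio scaling gave 711 and 514, which moved the share higher in BALB from 53.3% to 58.0%. Limma's 0 calls became 179 and 190 with DESeq2 and 158 and 146 with all 8 libraries, and 34 to 193 and 44 to 136 with single libraries left out, where the lone library is assumed to vary like the others. With the replicate block, limma called 1959 higher in BALB and 3498 in C57. The differences between replicates 2 and 1 correlated between the strains (r = 0.61 over regions), but with 2 pairs and no label tying the numbers they are not taken as pairs. The cause was not tested.

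At 24 h (88 and 54 calls) median-ratio scaling gave 37 higher in BALB, and leaving out libraries gave 16 (without BALB replicate 1) to 132 and 25 (without C57 replicate 2) to 55. H3K4me2 (216 and 237) gave 118 and 58 with median-ratio scaling, and 94 (without C57 replicate 2) to 261 and 51 (without C57 replicate 1) to 482 (without BALB replicate 2) with libraries left out. H3K4me3 gave 173 and 167 with edgeR and 274 and 234 with DESeq2, both added after the data were seen, and 0 to 0 in both directions with any library left out. Pol II (60 and 126) gave 14 (without BALB replicate 1) to 128 (without C57 replicate 1) and 28 (without BALB replicate 3) to 180. Of named regions the log2 difference, with single libraries left out, ran from -2.35 (without C57 replicate 2) to 1.65 (without C57 replicate 1) at H2-Q7 -0.2 kb, where it was 0.39 without BALB replicate 2, and from -1.85 to 0.084 (without C57 replicate 2) at Cd40 -0.9 kb. These 2 regions changed sign. At 16 tags a value rests on 21.8 to 26.9 reads.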
